A study of Mus musculus with 53 samples.

Results

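This comparison set BA mice against A mice, both untreated and both sampled 30 days after induction, in whole tissue of the proximal colon. BA mice (5 libraries) were VilCreER+ BrafV600E/+ Alk5fl/fl and A mice (4 libraries) were VilCreER+ Alk5fl/fl, so that both groups carried the deleted Alk5 (Tgfbr1, the type I receptor of TGF-beta) and differed in the activated Braf allele. The 9 libraries were picked by their labels of genotype, treatment and day from 53 in the series. VilCreER is a tamoxifen-dependent Cre driven by the Villin promoter and is active in intestinal epithelium, so the stroma, muscle, nerve and immune cells of the same tissue kept the starting alleles. Braf V600E was expressed from its own locus as a knock-in behind a removable stop cassette. WT mice of day 30 (VilCreER+, 4 libraries) are given beside some values, and endpoint BA tumours (4 libraries, same genotype as BA mice) with WT proximal colon (3 libraries) in a closing comparison. The study used adult mice of a C57BL/6J background, and background labels over the series held the tokens N9 and N6 (generations of backcross). These tokens were read over all 53 libraries together, so whether BA and A mice differed in them is not given here. The part of background in the results was not tested. Mice of both sexes were used in the study, the sex of single mice was not named, and neither was a sequencing batch. Each library is taken as 1 mouse, and p-values measure the spread between these mice.

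BRAF is a serine-threonine kinase that RAS proteins recruit to the membrane, and the V600E form signals without that input. Active BRAF phosphorylates MEK, which phosphorylates ERK, and ERK drives transcription of its own brakes, the DUSP phosphatases and the Sprouty and SPRED proteins, together with AP-1 and ETS factors. In the colon this cascade normally reads EGF-family ligands, while TGF-beta signalling restrains growth of the epithelium and Wnt signalling maintains Lgr5+ stem cells at the crypt base. A foetal-like programme marked by Ly6a (Sca1) and annexins is known from damaged or regenerating gut epithelium.

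Between 13266218 and 18603673 reads per BA library (median 17348583) and 14816807 to 17929964 per A library (median 15655851) were counted on genes, so that 3 counts stand for 0.173 and 0.192 CPM (counts scaled to a common library size) at these medians, a floor that covers counting error only. Levels below are CPM after TMM scaling, called normalised CPM. They compare libraries for 1 gene and not genes with each other, since they are not per length. Correlations of log2 CPM were 0.982 to 0.988 within BA, 0.961 to 0.982 within A and 0.925 to 0.951 between the groups. Ddx3y, on the Y chromosome, was above 10 CPM in all 9 libraries.

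Counts of the 2 targeted genes did not separate the groups. Tgfbr1 was at 50.3, 41.0, 52.2, 57.2 and 53.1 normalised CPM in BA mice 1 to 5 and at 31.4, 37.8, 59.4 and 43.3 in A mice 1 to 4, where both groups carried the deletion. Braf (chromosome 6 of GRCm38, 39603237 to 39725463) was at 35.6, 33.7, 35.5, 39.5 and 36.5 in BA and 20.2, 28.2, 45.7 and 34.2 in A mice, a log2 fold change of 0.17 (edgeR adjusted p = 0.477), and it overlaps Ndufb2 on the other strand. Both ranges overlapped. A count per gene over whole tissue does not tell recombined from intact transcripts or mutant from wild-type alleles, so these values do not check the genotypes.

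The DNA just upstream of 6 genes named below is shown first, as 250 bases before the start of the gene model in RefSeq (GRCm38.p6), read 5′ to 3′ on the gene's strand. Capitals mark matches, on either strand, to the AP-1 word TGANTCA or the TEAD word GGAATG, which in Epha2 reads CATTCC because it lies on the other strand. Also searched was the word CCGGAAGT of ETS factors, which does not occur in these 6. They were chosen after their values and matches were seen, to show a YAP/TEAD target, a matrix gene and an ERK output gene that rose and hold an AP-1 or TEAD word (F3, Plaur, Epha2), the ERK phosphatase and the cytokine antagonist described below (Dusp6, Il1rn, the first of 3 entries) and the transporter that fell the most (Slc37a2).
F3, chr3:121723287-121723536, plus strand: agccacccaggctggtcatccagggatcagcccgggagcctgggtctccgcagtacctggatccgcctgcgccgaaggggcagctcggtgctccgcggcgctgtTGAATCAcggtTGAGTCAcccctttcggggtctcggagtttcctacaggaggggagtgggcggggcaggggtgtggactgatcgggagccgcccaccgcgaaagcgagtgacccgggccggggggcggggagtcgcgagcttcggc
Plaur, chr7:24462233-24462482, plus strand: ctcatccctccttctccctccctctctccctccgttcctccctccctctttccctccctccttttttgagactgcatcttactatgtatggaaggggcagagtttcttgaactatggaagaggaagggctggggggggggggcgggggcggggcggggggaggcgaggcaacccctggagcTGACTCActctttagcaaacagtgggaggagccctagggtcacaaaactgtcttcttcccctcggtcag
Epha2, chr4:141300971-141301220, plus strand: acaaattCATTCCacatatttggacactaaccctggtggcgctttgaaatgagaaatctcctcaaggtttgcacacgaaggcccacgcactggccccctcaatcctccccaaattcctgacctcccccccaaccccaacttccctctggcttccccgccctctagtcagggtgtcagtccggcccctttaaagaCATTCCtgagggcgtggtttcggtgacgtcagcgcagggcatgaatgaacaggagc
Dusp6, chr10:99262981-99263230, plus strand: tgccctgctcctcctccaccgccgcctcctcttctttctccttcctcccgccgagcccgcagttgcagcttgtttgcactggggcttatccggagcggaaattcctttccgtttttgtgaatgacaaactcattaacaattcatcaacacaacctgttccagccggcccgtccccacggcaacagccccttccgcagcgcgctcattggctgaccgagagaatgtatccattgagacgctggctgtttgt
Il1rn, chr2:24336610-24336859, plus strand: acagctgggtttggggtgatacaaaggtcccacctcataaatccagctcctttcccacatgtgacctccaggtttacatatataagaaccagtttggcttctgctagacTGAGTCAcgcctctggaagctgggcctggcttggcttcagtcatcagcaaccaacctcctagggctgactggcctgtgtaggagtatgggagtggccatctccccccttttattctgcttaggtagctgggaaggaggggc
Slc37a2, chr9:37255739-37255988, minus strand: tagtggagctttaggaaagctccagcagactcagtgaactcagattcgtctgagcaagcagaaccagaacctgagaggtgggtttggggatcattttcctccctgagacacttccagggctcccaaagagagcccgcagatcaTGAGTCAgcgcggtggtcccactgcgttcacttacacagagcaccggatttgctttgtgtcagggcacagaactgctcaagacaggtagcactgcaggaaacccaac
F3 held 2 AP-1 words, 146 and 135 bases before its start, and no TEAD word, and Plaur, Il1rn and Slc37a2 held 1 each. Epha2 held 2 TEAD words and Dusp6 none of the 3. Ly6g (2 entries) and S100g, also described below, were looked up too, held none of the 3 words and are not printed. Of the other Il1rn entries none held an AP-1 word and 1 held a TEAD word. The AP-1 word was found upstream of 7.37% of the genes called higher in BA, 5.81% of those called lower and 5.46% of genes not called. It was found for 5.99% of all tested genes with a promoter entry and 7.82% of all 27025 genes with an entry, tested or not. In the same order these shares were 6.95%, 3.79%, 6.84%, 6.08% and 3.23% for the ETS word. For the TEAD word they were 12%, 15.4%, 12.6%, 13.2% and 14.4%. A match is a description of the letters, not a bound site.

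In BA mice, 3725 of 17128 genes (21.7%) rose and 4036 (23.6%) fell against A mice at an adjusted p under 0.05 (edgeR quasi-likelihood test), 7761 in all or 45.3%. The groups did not overlap for 6138 genes (35.8%). Such a share of all genes is the background against which the gene lists below are read, and the median log2 fold change over all genes was -0.06. Of the calls, 2527 were changes of more than 1 on the log2 scale, and 89 genes rose and 95 fell by more than 3.

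**Figure D1:**
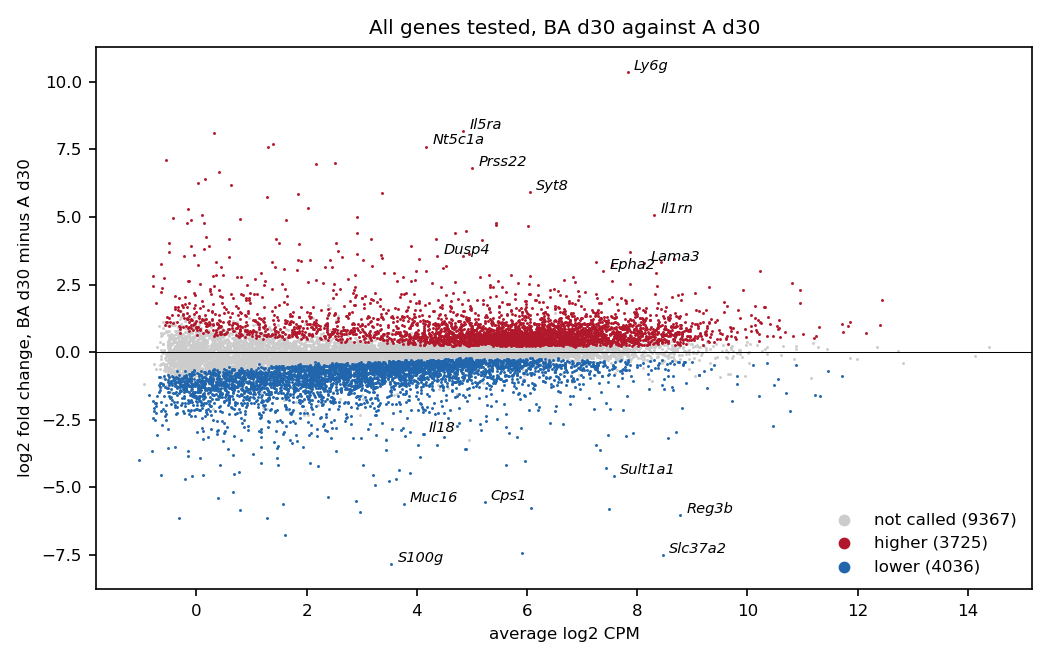
Each point is 1 of 17128 genes, with its average log2 CPM on the x axis and its log2 fold change (BA d30 minus A d30) on the y axis. Red points are the 3725 genes called higher, blue points the 4036 called lower and grey points those not called, and Ly6g stands highest while S100g and Slc37a2 stand lowest among the named genes.

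ERK feedback and output genes rose. Of 23 on the list, 18 were higher and 3 lower, with a median log2 fold change of 0.98. Dusp6, the cytoplasmic phosphatase of ERK (chromosome 10, 99263231 to 99267489), was at 188, 242, 169, 214 and 129 normalised CPM in BA mice 1 to 5 and at 43.1, 28.6, 49.0 and 35 in A mice 1 to 4. The lowest BA mouse stood above the highest A mouse, and the log2 fold change was 2.28 (standard error, SE, 0.21, 95% interval 1.83 to 2.73, adjusted p = 1.21e-05). Dusp4, a nuclear phosphatase of the same family, was at 33.6, 32.5, 44.7, 29.3 and 34.1 in BA and 2.73, 2.18, 3.91 and 2.90 in A mice, and this 3.57 (SE 0.18) was the largest log2 fold change of the list. Dusp5 rose by 1.92 and Dusp1 by 0.93. The Sprouty genes, which dampen receptor signalling upstream of RAS, moved less, with log2 fold changes of 0.86 for Spry1, 0.94 for Spry2 and 1.05 for Spry4. Spred1 rose by 0.93 and Spred2 by 0.60, while Spred3 was not called (0.24, adjusted p = 0.278).

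Among the transcription factors of this output, Fosl1, an AP-1 subunit, was at 5.70, 4.27, 4.16, 3.83 and 3.58 normalised CPM in BA and 0.444, 0.236, 0.920 and 0.305 in A mice, a log2 fold change of 3.16 (SE 0.34). Of the 36-base words of its exons 54% recur in other genes, mostly Ccdc85b, which lies across it on the other strand, so its count may hold reads of that gene. Fos, Junb and Egr1 rose by 1.31, 0.98 and 1.09, and Myc by 0.61. The 3 ETS factors of the PEA3 group did not move together. Etv4 was at 33.8 to 42.7 in BA and 5.65 to 11.2 in A mice (log2 fold change 2.18), whereas Etv1 fell by 0.99 and Etv5 by 0.59. Ccnd1, the cyclin of G1 entry, fell by 0.42 (adjusted p = 0.0176). With a term for smooth muscle markers in the fit none of these 3 falls was called, with log2 fold changes of -0.52 for Etv1, -0.74 for Etv5 and -0.30 for Ccnd1.

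Epha2, an ephrin receptor tyrosine kinase induced by ERK (chromosome 4, 141301240 to 141329384), was at 301, 251, 332, 192 and 288 normalised CPM in BA and 52.1, 17.4, 42.9 and 22.6 in A mice. Every BA mouse exceeded every A mouse, with a log2 fold change of 3.01 (SE 0.31, adjusted p = 3.22e-05), while its relative Epha4 was not called (0.21). Phlda1 and Ier3, early response genes, rose by 2.07 and 1.13.

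The cascade itself shifted upwards by small steps. Of its 16 genes, 9 were higher and 1 lower, with a median of 0.37. Nras (0.74), Rasa1 (0.64), Sos1 (0.58) and Map2k1 (0.57), the gene of MEK1, led these rises, and Araf fell by 0.23. Braf, Hras, Ksr1 and Nf1 were among those not called. The number of these genes called higher ran from 4 to 11 over the alternatives, and was 4 with the smooth muscle term.

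Ligands and receptors of the EGF family split by gene. Of 10 tested, 8 were higher and 2 lower (median 0.95), and Epgn and Erbb4 had too few reads. Hbegf, a ligand of EGFR, was at 126, 116, 136, 75.9 and 91.9 normalised CPM in BA and 39.0, 17.7, 39.6 and 25.2 in A mice, a log2 fold change of 1.85 with no overlap. Btc rose by 1.54, Areg by 0.95, Ereg by 0.62 and Tgfa by 0.47. Egfr was at 93.9 to 135 in BA and 29.3 to 46.2 in A mice (log2 fold change 1.59, adjusted p = 1.89e-05), Erbb3 rose by 1.21 and Erbb2 by 0.95. Nrg1, a ligand of ERBB3 and ERBB4, went the other way, from 14.2, 7.54, 23.9 and 9.82 in A mice to 1.26, 1.62, 2.45, 0.426 and 2.05 in BA mice. Its log2 fold change was -3.16 (SE 0.43, adjusted p = 0.000172), and Egf fell by 1.96.

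**Figure D2:**
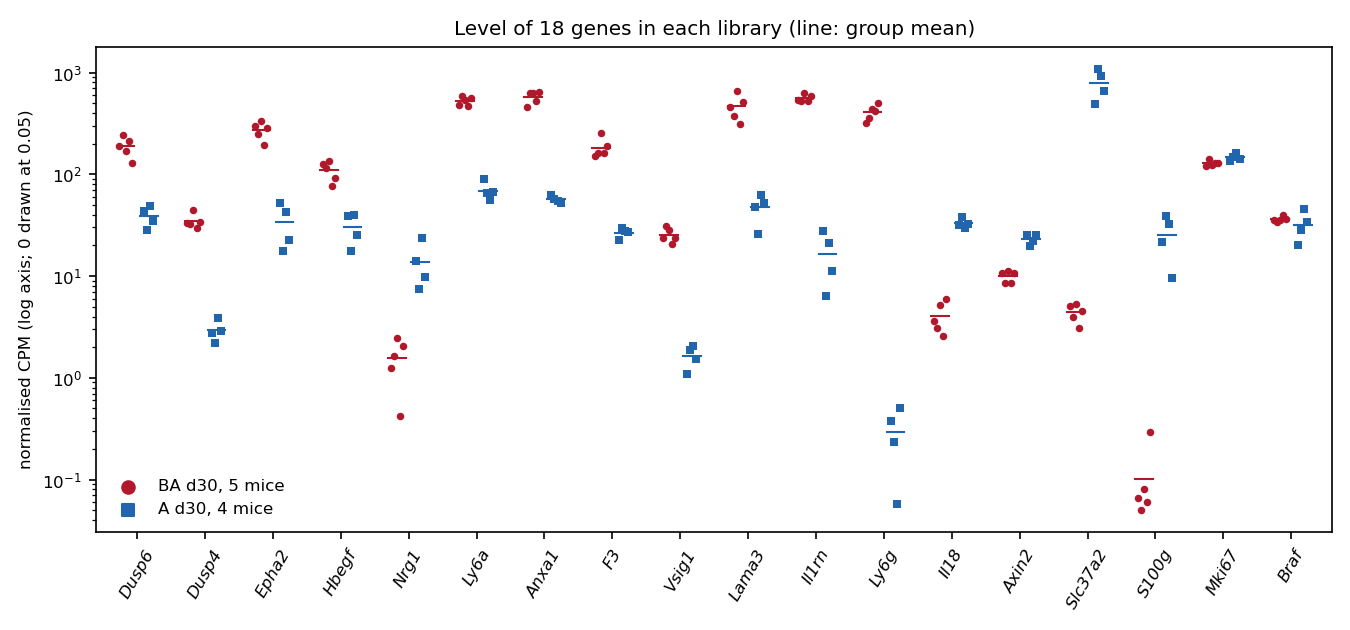
Normalised CPM (y axis, log scale) of 18 genes in each of the 5 BA libraries (red circles) and 4 A libraries (blue squares), with a line at the group mean. For Ly6g, Il1rn, Dusp6 and Anxa1 all BA points lie above all A points, for Slc37a2, Il18 and Nrg1 all lie below, and for Mki67 and Braf the groups overlap.

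Foetal markers of the gut epithelium were higher in BA mice. The list holds the 11 genes that the study picked as differing in endpoint BA tumours, so it is not independent of the genotype, although it was not picked on these 9 libraries. Of the 10 that could be tested, 8 were higher and 1 lower, with a median of 2.86. Ly6a, a surface marker of foetal and regenerating epithelium (chromosome 15, 74994877 to 74998031), was at 475, 586, 533, 468 and 565 normalised CPM in BA mice and 89.2, 64.9, 56.0 and 66.3 in A mice. The groups lay far apart, with a log2 fold change of 2.93 (SE 0.15, adjusted p = 3.44e-07). Since 28.8% of the 36-base words of Ly6a recur elsewhere, mostly in Ly6c1, which itself rose by 2.80, the split of reads between the pair is uncertain. Ly6d, none of whose words recur, was at 54.2, 37.7, 57.2, 56.8 and 54.4 in BA and 6.79, 3.65, 3.28 and 3.10 in A mice, a log2 fold change of 3.64.

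The annexins, proteins that bind membrane phospholipids with calcium, differed among themselves. Anxa1 (chromosome 19, 20373428 to 20390944) was at 461, 634, 633, 528 and 640 normalised CPM in BA mice and within 52.2 to 63.2 in A mice, a ratio of the means of 10.2 and a log2 fold change of 3.35 (SE 0.14, adjusted p = 6.02e-08). Anxa3 rose by 3.33, Anxa8 by 3.00 and Anxa5 by 1.96. Anxa6 fell by 0.77 with adjusted p = 0.000398. Krt7, a keratin of simple duct epithelia, was at 395 to 554 in BA and 110 to 197 in A mice (1.80), and Ly6e was not called (-0.26). All 8 rises were called in every alternative fit. Markers of revival stem cells, which appear after irradiation, were mixed, with 4 of 6 higher. Msln rose by 2.30, Anxa2 by 1.81 and Cxadr by 1.28, while Clu, the defining marker, was at 45.3, 23.8, 50.7, 12.5 and 19.1 normalised CPM in BA mice and at 21.3 to 30.8 in A mice and was not called (0.14, adjusted p = 0.771).

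YAP/TEAD targets did not move as a group. Of 24 tested, 8 were higher and 3 lower (45.8% called, against 45.3% of all genes), and their median was -0.04. F3, tissue factor (chromosome 3, 121723537 to 121735048), was at 152, 160, 255, 161 and 188 normalised CPM in BA and 22.5, 29.6, 27.6 and 27.1 in A mice. Its log2 fold change of 2.78 (SE 0.17, adjusted p = 1.31e-06) was the largest of the list, with Nt5e, the ecto-nucleotidase CD73, at 2.48, Myof at 2.25, Dock5 at 1.42 and Wwc1 at 1.15. The targets most used as readouts were not among them. Ccn2, a secreted matricellular protein, was at 19.5, 17, 17.1, 18.7 and 7.74 in BA and 16.7, 27.8, 22.5 and 22.0 in A mice, overlapping ranges with a log2 fold change of -0.48 (95% interval -0.99 to 0.04, adjusted p = 0.119). Ccn1 (-0.53, adjusted p = 0.0647) and Ankrd1 (-0.87, adjusted p = 0.256) were not called either.

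Matrix and adhesion genes rose by gene and not as a set. Of 21 tested, 9 were higher and 5 lower, with a median of 0.20. Genes of laminin-332, the laminin of epithelial basement membrane, were among those that rose. Lama3 was at 461, 374, 660, 314 and 517 normalised CPM in BA and 48.2, 25.8, 62.7 and 52.6 in A mice (log2 fold change 3.30, standard error 0.29), and Lamb3 rose by 2.14. The laminin and collagen receptor subunits Itgb4 and Itga2 rose by 2.1 and 2.09. Plaur, the urokinase receptor, was at 68.9, 63.3, 80.4, 43.7 and 58.7 in BA and 21.1, 6.07, 8.11 and 9.56 in A mice (2.49, adjusted p = 0.000143). Of the metalloproteinases, Mmp10 rose by 2.35, and Mmp7 was lower by 3.75 with overlapping groups and adjusted p = 0.0171, a call that was lost in 3 of the 16 alternatives that gave it a value (limma voom, without A replicate 1, and without BA replicates 3 and 5).

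Junction genes were higher too, with 9 of 13 called higher and 3 lower (median 0.61). Epithelial markers, which share members such as Cldn3 with this list, had a median of 0.74 with 10 of 10 higher. The part of the epithelial level in the junction rises was not tested. The tight junction scaffold Tjp1 rose by 1.44, Cldn23 by 1.14 and Ocln by 1.08, and Cldn4 was at 393 to 539 normalised CPM in BA and 91.5 to 236 in A mice (1.62). Cldn8, a sealing claudin of surface colonocytes, fell by 2.50, the pore-forming Cldn2 by 1.23 and Cldn15 by 0.63.

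Crypt stem cell markers were split. Of 17 tested, 6 were lower and 3 higher (52.9% called, against 45.3% of all genes), with a median of -0.31, and with the smooth muscle term 4 were lower and 2 higher. Lgr5, the receptor for R-spondins that defines crypt base stem cells, was at 4.24, 5.53, 6.36, 4.38 and 6.80 normalised CPM in BA and 6.98, 9.01, 9.77 and 5.70 in A mice. The groups overlapped and the log2 fold change of -0.53 was not called (adjusted p = 0.0562), although it was in 5 of 17 alternatives. Ascl2, a transcription factor of the same cells, was at 1.39 to 2.39 in BA and 4.31 to 6.53 in A mice (-1.56, adjusted p = 0.000195), Msi1 fell by 1.30, Tnfrsf19 by 1.17, Rnf43 by 0.49, Cdca7 by 0.47 and Rgmb by 0.42. Prom1 was at 1355 to 1595 in BA and 468 to 705 in A mice (1.36), Ephb2 rose by 0.62 and Sox9 by 0.36. Olfm4 had too few reads for a test.

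Of 10 Wnt feedback and target genes tested, 0 were higher and 6 lower (median -0.69) in the edgeR test, 0 were higher with DESeq2 and with limma voom, and 1 was higher without A replicate 4. Axin2, a negative regulator that Wnt signalling induces (chromosome 11, 108920349 to 108950783), was at 10.8, 8.54, 11.1, 8.58 and 10.6 normalised CPM in BA and 25.1, 19.6, 22.3 and 25.1 in A mice. Every BA mouse lay below every A mouse, with a log2 fold change of -1.21 (SE 0.13, adjusted p = 3.08e-05). Sfrp5 fell by 1.47, Nkd1 by 1.25, Tcf7 by 0.77 and Apcdd1 by 0.62, and Sp5 (0.41) and Prox1 (-0.91) were not called.

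Colonocyte transport and differentiation genes held the largest falls. Of 24 tested, 11 were lower and 4 higher, with a median of -0.35. Slc37a2, a sugar-phosphate exchanger of the endoplasmic reticulum (chromosome 9, 37227585 to 37255738), was at 487, 1081, 927 and 665 normalised CPM in A mice and 5.04, 3.97, 5.30, 3.10 and 4.51 in BA mice. These ranges lay far apart, with a ratio of the means (BA to A) of 0.00555, and the log2 fold change was -7.50 (SE 0.28, adjusted p = 2.59e-08). S100g, a calcium-binding protein of calcium uptake (chromosome X, 162961992 to 162964599), was at 21.4, 38.6, 32.8 and 9.51 in A mice and at 0.0663, 0, 0.0815, 0.0608 and 0.293 in BA mice, 8 reads in all 5 libraries together against 1751 in the 4 of A. All but 1 of the BA values lie under the level of 3 counts. Trpm6, a magnesium channel, fell by 2.66, the sodium channel subunit Scnn1b by 2.26, the guanylin-family peptide Guca2b by 2.19, the phosphate transporter Slc20a1 by 2.13 and carbonic anhydrase Car2 by 1.33. Aqp4 rose by 1.36.

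Other differentiated lineages changed less evenly. Of 18 goblet cell genes, 4 were higher and 4 lower (44.4% called, against 45.3% of all genes, median -0.19). Ang4 was at 1.53, Bcas1 at 1.15 and Clca1 at 0.96, against Retnlb at -2.09, Reg4 at -1.20 and Spink4 at -0.89. The main mucin Muc2 was not called (-0.26). Of 11 enteroendocrine genes, 2 were higher (Pyy 1.03, Tph1 0.98) and 3 lower (among them Sct -0.94 and Gcg -0.60), with a median of -0.50 and 45.5% called. Of 8 tuft cell genes, 0 were called with edgeR, DESeq2 or limma voom, and 0 had an unadjusted p under 0.05, with Dclk1 at -0.08 and Trpm5 at 0.23, although 1 was called lower in the fit without A replicate 1. Among 16 factors of intestinal identity, 4 were higher and 3 lower (43.8% called, median 0.06). The goblet, enteroendocrine and identity lists thus lay near the share of all genes. Klf5 rose by 0.82, Hnf4a by 0.76 and Klf4 by 0.51, Ppargc1a fell by 0.84 and Nr1h4 by 0.62, and the hindgut factor Cdx2 was not called (-0.02). Cdx1 fell by 0.32, a call kept in 5 of 17 alternatives.

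Of 14 gastric markers, 10 had too few reads for a test, Muc5ac, Tff1, Gkn1, Aqp5 and Cldn18 among them. Vsig1, a junction protein of stomach epithelium (chromosome X, 140907608 to 140939472), was at 23.5, 30.7, 28.4, 20.4 and 23.8 normalised CPM in BA and 1.08, 1.88, 2.07 and 1.53 in A mice, a log2 fold change of 3.94 (SE 0.20, adjusted p = 3.34e-07). Ctse fell by 1.33, and Muc6 (0.15) and Tff2 (1.34) were not called.

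**Figure D3:**
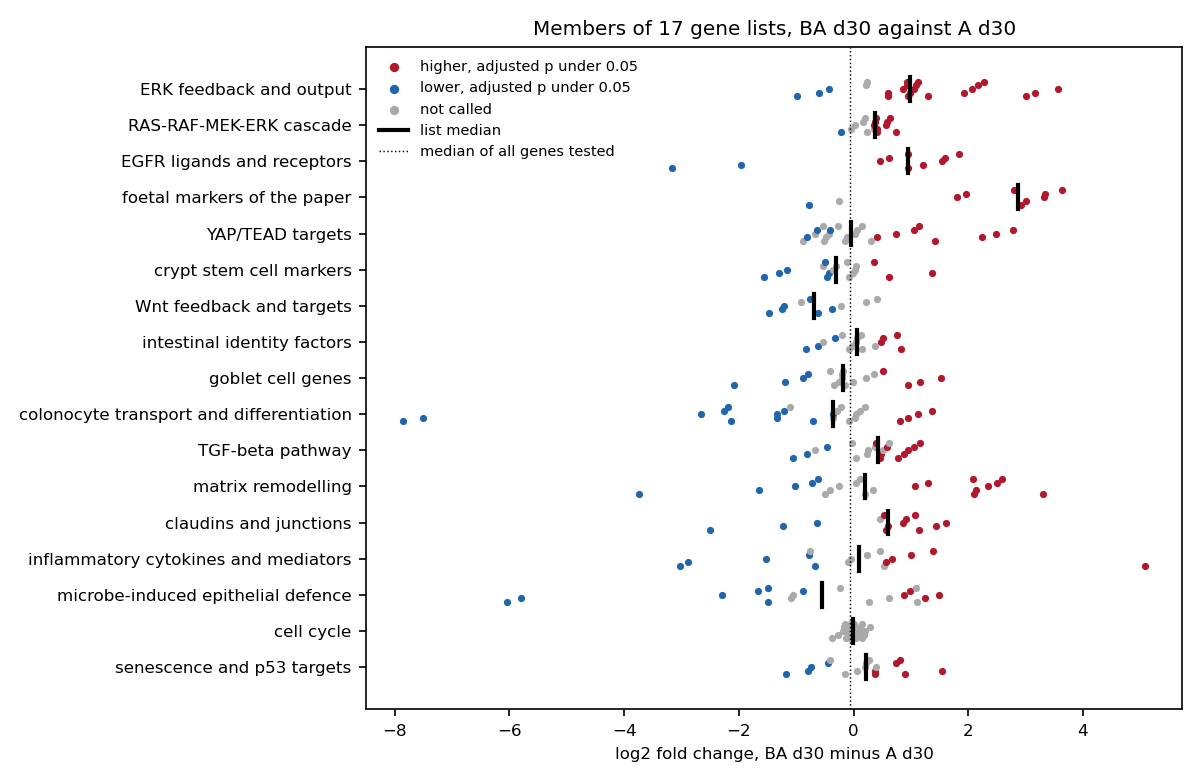
Each point is the log2 fold change (x axis, BA d30 minus A d30) of 1 tested member of 1 of 17 gene lists (y axis), red where called higher, blue where called lower and grey where not called, with a black bar at the list median and a dotted line at the median of all genes tested (-0.06). Foetal markers (median 2.86) and ERK output (0.98) stand to the right, Wnt targets (-0.69) to the left, and all cell cycle genes lie within -0.37 to 0.29.

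The gene with the largest rise of all was Ly6g, known as a surface protein of neutrophils (chromosome 15, 75155240 to 75159126). It was at 319, 360, 439, 417 and 507 normalised CPM in BA mice and 0.381, 0.236, 0.0575 and 0.509 in A mice, 31672 reads in all against 21. The mean in BA was 408 ± 72.4 (SD, n = 5) and in A 0.296 ± 0.194 (SD, n = 4), a log2 fold change of 10.37 (SE 0.32, 95% interval 9.68 to 11.07, adjusted p = 9.42e-09). Only 6.51% of its 36-base words occur in other genes, most in Ly6i. The other neutrophil genes did not follow it. S100a8, S100a9, Mpo, Ngp and Cxcr2 had too few reads for a test, Itgam was not called (0.14) and Clec4d fell by 1.39. The summed level of the 13 neutrophil markers without Ly6g was 8.46 to 16.4 in BA and 12.6 to 20.9 in A mice, ranges that overlap. Of 9 neutrophil chemokines and growth factors, only Cxcl5 had enough reads, and it fell by 1.97.

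Il1rn, the antagonist of the IL-1 receptor (chromosome 2, 24336853 to 24351494), was at 541, 520, 623, 525 and 585 normalised CPM in BA and 27.4, 6.42, 21.2 and 11.1 in A mice. All BA mice stood well above all A mice, with a log2 fold change of 5.08 (SE 0.38, adjusted p = 3.49e-06). Il18, a cytokine of the same family made by resting epithelium (chromosome 9, 50554827 to 50581840), was at 3.58, 3.07, 5.22, 2.56 and 5.98 in BA and 31.8, 38.5, 29.7 and 32.8 in A mice, a log2 fold change of -3.03 (SE 0.22). The rest of the inflammatory list was split, with 5 higher and 5 lower of 16 tested, these 2 included, and a median of 0.09. Tnf rose by 1.38, Il1b by 1.01 and Lif by 0.67, the chemokine Ccl20 fell by 2.89, Ccl5 by 1.52 and Socs3, the feedback inhibitor of STAT3, by 0.68. Levels of these were low, with Il1b at 6.32 against 3.14 and Tnf at 3.49 against 1.34 normalised CPM on average.

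Epithelial defence genes that respond to microbes were lower more often than higher (7 and 4 of 18, median -0.56). Reg3b, an antibacterial lectin, was at 2.45, 0.120, 21.4, 2.19 and 48.0 normalised CPM in BA mice and varied from 4.42 to 2690 in A mice. The groups overlapped despite a log2 fold change of -6.04 (SE 1.57, adjusted p = 0.00925), and Reg3g behaved alike (-5.80). Pigr, the receptor that carries IgA into the lumen, was at 656 to 1517 in BA and 1721 to 3742 in A mice, a fall of 1.50 on the log2 scale without overlap. Lcn2 fell by 1.48, Duox1 rose by 1.49 and Ido1 by 1.24, and Duox2 was not called (1.08). Of 12 prostaglandin genes 1 rose and 5 fell (50% called, against 45.3% of all genes). Ptger4 rose by 0.32, and among the falls were Ptger3 by 1.98 and Ptges2 by 0.53. Ptgs2, the inducible cyclo-oxygenase COX-2, was not called (-0.60, edgeR adjusted p = 0.137).

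Within the TGF-beta pathway, whose type I receptor was targeted in the epithelium of both groups, 9 of 20 genes were higher and 3 lower (median 0.43). The repressor Skil rose by 1.15, the signal transducer Smad3 by 1.06, Pmepa1 by 0.89, Ski by 0.77 and the inhibitor Smad7 by 0.58. Tgfbr3, the co-receptor, fell by 1.06 and Tgfb3 by 0.81, and Tgfbr2 was not called (-0.03).

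Cell cycle genes were not called in either direction. Of 24 tested, 0 passed with edgeR, 2 had an unadjusted p under 0.05, and DESeq2 and limma voom also called 0. Their log2 fold changes lay between -0.37 and 0.29 with a median of -0.01, and all 95% intervals lay within -0.70 to 0.79. Mki67, the proliferation antigen, was at 121, 142, 124, 129 and 129 normalised CPM in BA and 135, 147, 164 and 142 in A mice (-0.19, 95% interval -0.38 to 0.01, adjusted p = 0.111). Leaving out A replicate 3 or 4 gave 1 call. Of 17 senescence and p53 target genes, 6 were higher and 4 lower (58.8% called, median 0.22). Pmaip1, the BH3-only protein NOXA, rose by 1.54, Perp by 0.89, Sesn2 by 0.81 and Trp53inp1 by 0.74, and Eda2r fell by 1.18. Cdkn1a, the gene of p21, rose by 0.38 with overlapping groups (adjusted p = 0.0222), and Cdkn2a had too few reads.

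The makeup of the tissue differed between the groups beside these results. The summed level of 10 epithelial markers was 25028 to 28146 normalised CPM in BA and 12386 to 20001 in A mice, without overlap, and 10 of 10 were called higher, Krt18 by 2.31 and Epcam by 0.68 among them. Muscle markers (8 genes) were at 1159 to 4587 in BA and 3894 to 7409 in A mice, with 2 of 8 lower (Acta2 -1.18), and enteric nerve and glia markers at 15.8 to 37.7 and 38.7 to 82.1, with 7 of 9 lower (S100b -1.91, Uchl1 -1.87). T cell markers were at 12 to 19.3 and 20.4 to 40.5, with 5 of 9 lower (Lck -1.20), and B and plasma cell markers at 288 to 597 and 723 to 1156, with 5 of 9 lower (Jchain -1.41). These 3 lists did not overlap between the groups. Stromal (5 of 10 lower, Dcn -0.94), endothelial (2 of 8 lower) and macrophage markers (2 of 10 lower) overlapped. Called shares were 25% of muscle, 77.8% of nerve and glia, 55.6% of T cell and 55.6% of B and plasma cell markers. They were 50% of stromal, 25% of endothelial and 20% of macrophage markers, against 45.3% of all genes. Proximal small intestine markers (10 genes) were at 2778 to 3443 in BA and 1545 to 2464 in A mice, without overlap, with 3 of 7 tested higher (Apob 1.57) and 2 lower (Apoa4 -3.62). Of 7 MHC class II genes 0 were called and 0 had an unadjusted p under 0.05 with edgeR, DESeq2 or limma voom. In whole tissue, fewer cells of a type and less RNA per cell cannot be told apart, and the part of this makeup in the gene results above was not tested beyond 1 fit with smooth muscle marker level as a term, chosen after the data were seen. That fit called 4710 genes, with 8 foetal markers higher (8 without the term), 16 ERK output genes higher (18), 7 colonocyte genes lower (11) and 2 Wnt genes lower (6).

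**Figure D4:**
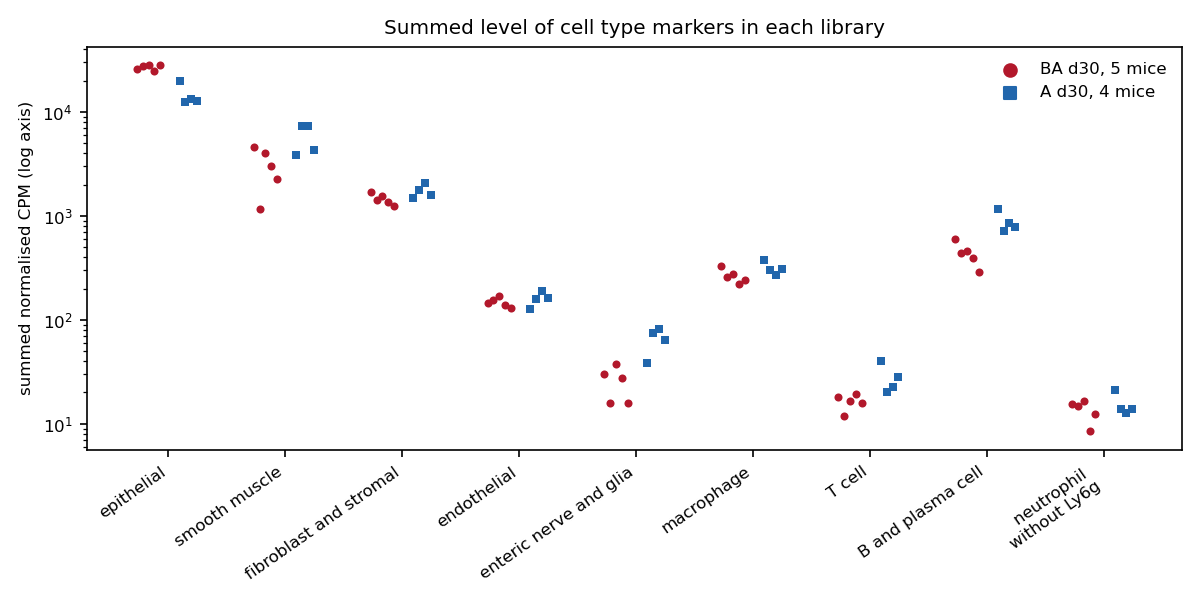
Summed normalised CPM (y axis, log scale) of the markers of 9 cell types (x axis) in each of the 5 BA libraries (red circles) and 4 A libraries (blue squares). Epithelial sums are higher in all BA libraries, nerve and glia, T cell and B and plasma cell sums are lower in all of them, and the other groups overlap.

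Beyond the lists, the 12 largest rises among called genes whose groups did not overlap and whose average log2 CPM reached 2 were led, after Ly6g, by Il5ra and Nt5c1a. Il5ra, a receptor subunit for IL-5, was at 30.7, 54.0, 60.1, 44.0 and 68.0 normalised CPM in BA and 0.127, 0, 0.287 and 0.254 in A mice, a log2 fold change of 8.16. Nt5c1a, a cytosolic nucleotidase, was at 28.8 to 35.4 in BA and 0 to 0.460 in A mice (7.60). Arhgap40 (7.00), Csta1 (6.94), the serine protease Prss22 (6.80), Syt8 (5.93), Alb (5.88), 4930461G14Rik (5.32), Il1rn and Trim29 (4.77) were among the others. Csta1 had 4 reads in the 4 A libraries together. Alb, serum albumin, was uneven in BA mice at 4.18, 39.1, 6.52, 31.2 and 10.1. The 12 largest falls under the same limits were those of S100g, Slc37a2, 3100003L05Rik (-5.91), Slc30a10 (-5.78), a manganese exporter, the membrane mucin Muc16 (-5.63), Cps1 (-5.55) of the urea cycle, Ugt8a (-5.52), Adamts18 (-5.37), 9130221F21Rik (-4.93), Hsd17b13 (-4.69), Sult1a1 (-4.58) and Gm2061 (-4.55). Slc30a10 and Gm2061 lie across each other on opposite strands and their reads cannot be told apart without strand. Within 10 Mb of Braf on chromosome 6, 26 of 137 genes tested were higher and 40 lower (48.2% called, against 45.3% of all), the largest rises being Mgam2-ps (1.23), Akr1b8 (1.17) and Kdm7a (1.10) and the largest falls Tspan33 (-1.66), Trbc2 (-1.36) and Ptn (-1.30).

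WT mice of the same day show which of these levels the A group already had. A against WT mice gave 25 calls among 17713 genes (0.141%) with edgeR, 17 higher and 8 lower (136 with DESeq2, 72 with no low-count filter, 15 without WT replicate 2), and BA against WT mice 9634 of 17471 (55.1%). The comparisons share libraries with the one above, so their values are only set side by side. Dusp6 had log2 fold changes of 2.27 in BA against WT and 0.03 in A against WT, Ly6a 3.38 and 0.49, Anxa1 3.52 and 0.22, F3 3.30 and 0.56, Lama3 3.11 and -0.16, and Il1rn 6.35 and 1.30. For the falls these values were -3.24 and -0.17 for Il18, -8.40 and -0.86 for Slc37a2, -8.15 and -0.25 for S100g and -0.91 and 0.34 for Axin2. None of these 10 genes was called in A against WT. Gapdh and Styk1 were among the 8 genes lower there, falling by 2.39 and 0.96, and they rose in BA against A by 1.77 and 0.64. For Styk1 that rise starts from a lowered group. Gapdh reads may be split with its pseudogene Gm13394, which rose by 7.56 in A against WT, so its values may not be those of the gene alone.

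Treated mice of day 30 gave further levels on a scale shared by 5 groups. Ly6g ran from 280 to 355 normalised CPM (median 331) in BA mice on antibiotics, from 0.214 to 12.9 (median 0.931) in A mice on sulindac, and from 0.0519 to 0.316 in WT mice. In the same BA antibiotic mice Anxa1 was at 578 to 836, Il1rn at 481 to 618, Dusp6 at 85.7 to 144, Il18 at 1.25 to 3.59 and Slc37a2 at 10.7 to 28.0. In A mice on sulindac Slc37a2 was at 86.3 to 985, Anxa1 at 52.8 to 183 and Dusp6 at 32.1 to 53.1. For each of these 6 genes every BA mouse, treated or not, lay on the same side of every A mouse, treated or not, and of every WT mouse.

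The effect at day 30 was compared with that in endpoint tumours by testing the difference between BA against A at day 30 and BA tumour against WT proximal colon, which share no library. In tumours 1431 of 19188 genes (7.46%) were higher and 1096 lower. The effects differed for 2621 of 20476 genes (12.8%), of which 1796 (8.77%) were more negative at day 30 and 825 more positive. The reference differs too (A against WT), and Ddx3y was above 10 CPM in 3 of 4 tumours and 0 of 3 WT proximal colons, so that stage, reference and sex cannot be told apart here.

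ERK output genes changed at both stages, and so did foetal markers, which the study had picked on these same tumours. Of 23 ERK output genes, 14 were higher in tumours and 6 differed, all more negative at day 30, Etv4 among them (-1.17). Dusp6 had 2.28 at day 30 and 2.27 in tumours, Dusp4 3.57 and 3.13. Of the 10 foetal markers tested at both stages, 8 were higher in tumours and 3 differed, Anxa3 (by 1.05) and Anxa5 (by 0.88) with a larger rise at day 30, and Ly6e (by -1.11). Anxa6 (edgeR adjusted p = 0.368) and Ly6e (edgeR adjusted p = 0.0848) were not called in tumours. Since these markers were picked as differing between these tumours and WT colons, their count in tumours is not independent of that choice. The differences between stages carry that choice too. A difference that was not called does not show equal effects, and that of Ly6a was -0.11 with a standard error (SE) of 0.42.

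YAP/TEAD targets, matrix genes and inflammatory mediators differed. For 11 of 24 YAP/TEAD targets the effect was more negative at day 30 and for 0 more positive in the edgeR test. Ccn2 rose by 4.47 in tumours against -0.48 at day 30, a difference of -4.98 (SE 0.56, adjusted p = 8.68e-05), Ccn1 differed by -2.93 and Ankrd1 by -4.19, and that of F3 was not called (-0.75). Of 21 matrix genes 12 differed, all more negative at day 30, with Mmp10 at -3.86 and Mmp7 at -8.70. Of 21 inflammatory genes with a tested difference 13 were more negative at day 30 and 14 were higher in tumours. These differences were -4.27 for Socs3, -3.00 for Il18, -2.68 for Lif, -2.51 for Il1b and -2.05 for Tnf. Neutrophil genes that had too few reads at day 30 were among them, since S100a8 rose by 4.23 and S100a9 by 4.32 in tumours, while Ly6g rose by 9.05 there and its difference was not called (1.29, adjusted p = 0.229).

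Enteroendocrine genes went the other way, with 8 of 12 more positive at day 30 and 7 of 12 lower in tumours, where Gcg had a log2 fold change of -3.95 and Sct of -4.34. Of 24 colonocyte genes, 5 were more positive and 1, Slc37a2, more negative at day 30 (-7.50 against -3.08). Cell cycle genes and cascade genes gave 0 differences with edgeR among 24 and 16. Markers of the stroma (7 of 10), macrophages (6 of 10) and B and plasma cells (5 of 9) had a more negative effect at day 30 as well, and their part in the differences above was not tested.

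**Figure D5:**
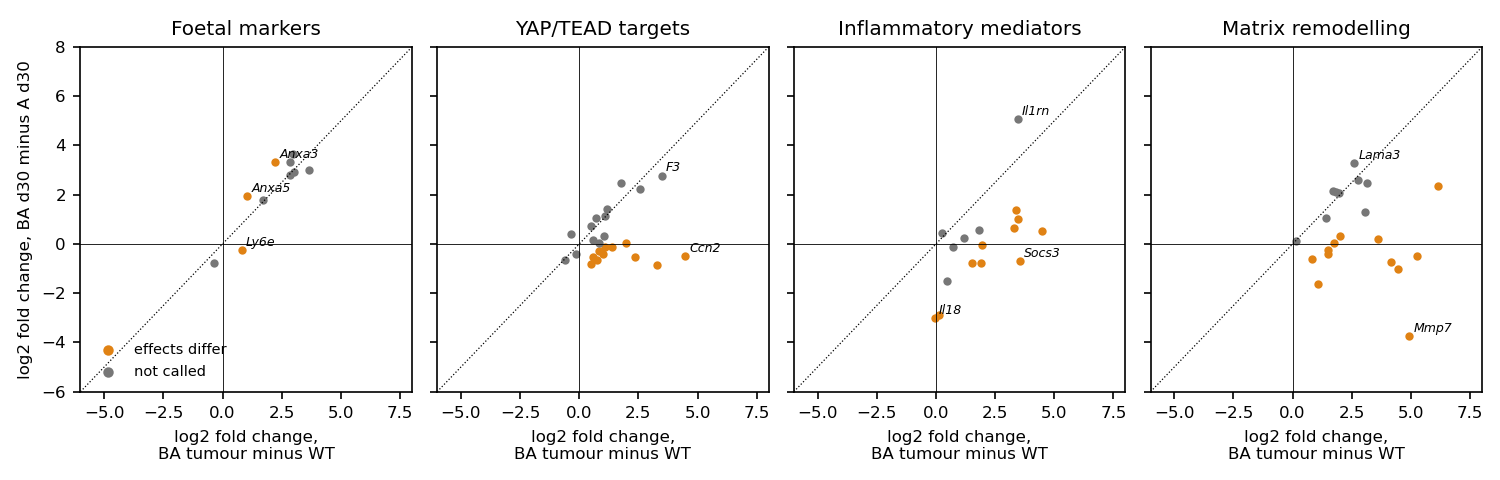
Log2 fold change at day 30 (y axis, BA d30 minus A d30) against that in endpoint tumours (x axis, BA tumour minus WT proximal colon) for the members of 4 lists tested in both, orange where the difference between the effects was called and grey where not, with a dotted line at equal effects. Of the 10 foetal markers 3 differ (Anxa3 and Anxa5 above the line, Ly6e below it), and Ccn2 (4.47 in tumours, -0.48 at day 30), Socs3 (3.56 and -0.68) and Mmp7 (4.93 and -3.75) lie below it.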

How the data were processed

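The deposited values were raw read counts per gene. Per the study's methods and the submitters' processing notes, 36-base reads were checked with FastQC 0.11.8, trimmed with Trim Galore 0.6.4, aligned to GRCm38 with HISAT2 2.1.0 and counted with featureCounts 1.6.4 by the authors. Strand use and the treatment of multi-mapping reads were not given in the sources used here. The table held 55421 genes, 55154 of them with a symbol.

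Counts of the 5 BA and 4 A libraries were tested with edgeR 4.0.16 (R 4.3.3; filterByExpr, TMM scaling, quasi-likelihood F test, Benjamini-Hochberg adjustment over all genes tested, threshold 0.05), and only the groups compared entered a fit. The difference from endpoint tumours was a contrast of the 4 groups in 1 fit. DESeq2 1.42.0, limma voom (limma 3.58.1), RLE scaling, no low-count filter, all 5 day-30 groups in 1 fit, a replicate block and leaving out each library were alternatives. A smooth muscle term and leaving out BA replicates 3 and 5 together were added after the data were seen. On simulated counts for BA d30 against A d30 (16910 genes), 63% of 100 genes changed by 1 and 93% of 100 genes changed by 2 on the log2 scale were called, and 5.45% of calls were unchanged genes. No other genes were changed in the simulation, whereas 45.3% of genes were called in the data, so these shares need not carry over.

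The members and gene lists were chosen with earlier results of these data known. Genes named were all members of the ERK output, cascade, EGFR, foetal, gastric and crypt stem cell lists, the extremes and up to 6 more of each other list, the 12 largest rises and falls without overlap and with average log2 CPM of at least 2, the targeted genes and Gm13394, the 3 largest called rises and falls within 10 Mb of Braf, and the 3 largest differences from the endpoint in each direction. Genes named besides these (Gm36640, Styk1, overlapping neighbours and members of lists added later) were chosen after their values were seen. The results of some genes are not reported here. Shared 36-base words were counted between exons of the GRCm38 annotation, and promoters came from RefSeq (GRCm38.p6).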

Additional observations from a re-analysis of the deposited data

Results flagged for a closer look

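Among 94 groups of 4 or 5 libraries (47 genes in BA and in A mice), 7 held 1 value whose gap to the nearest other exceeded Dixon's 95% critical value of the group's range. Chance gives about 1 in 20. Ly6d was at 37.7 normalised CPM in BA mouse 2, against 54.2 to 57.2 in the other BA mice, and at 6.79 in A mouse 1, against 3.10 to 3.65. Nt5e was at 27.0 in A mouse 3, against 17.5 to 19.2. Ccn2 was at 7.74 in BA mouse 5, against 17 to 19.5. Pigr was at 1517 in BA mouse 1, against 656 to 888. S100g was at 0.293 in BA mouse 5, against 0 to 0.0815, and Mmp7 at 1.03 in BA mouse 4, against 0 to 0.199, both within a few reads of 0.

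Of 52 genes whose effect at day 30 was compared with that in endpoint tumours, 15 differed in the edgeR test of the difference (day 30 minus tumour, log2 scale). The difference was more positive for Alb (6.00), Gm36640 (4.26), Ambp (4.23) and Anxa3 (1.05). It was more negative for the antimicrobial Paneth-type peptide Defa24 (-15.48), the lectins Reg3g (-9.67), Itln1 (-9.26) and Reg3b (-9.22), and for Mmp7 (-8.70), Ccn2 (-4.98), Slc37a2 (-4.41), Nrg1 (-3.65), Il18 (-3.00), Etv4 (-1.17) and Tgfbr1 (-1.02). Defa24 had too few reads for a test at day 30, and 48.2% of its 36-base words recur elsewhere, mostly in Defa30. The size of its difference is therefore uncertain. Stage, reference group and sex cannot be told apart in these differences.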

How the results depend on the processing

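The 7761 calls in BA against A mice stayed within 6492 (without A replicate 2) to 8245 (without A replicate 3) on leaving out 1 library and within 5571 to 8234 under the other alternatives, apart from 4710 with the smooth muscle term. BA against WT gave 8796 to 9425 on leaving out 1 library. A against WT gave 25 calls, 72 with no low-count filter and 136 with DESeq2, and 15 (without WT replicate 2) to 28 (without WT replicate 1). The difference from the endpoint gave 2621 calls, and 1695 (without WT proximal colon replicate 3) to 3211 (without BA tumour replicate 2). Of 4927 pairs of 290 genes and a setting, 4613 kept their side of the threshold (96 of these, called in neither fit, changed sign), 258 lost and 55 gained a call, and 1 reversed: Synpo2 was at 0.53 with the smooth muscle term (adjusted p = 0.0387, edgeR) against -0.46 without it. Synpo2 is itself 1 of the 8 smooth muscle markers summed in that term, so its value in that fit is not an independent check. The smooth muscle term lost 51 calls, Egr1, Il1b, Tgfa and Gapdh among them. The share of calls that were higher ran from 45.5% to 53.9%.

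Replicate numbers shared by both groups were not used to pair the libraries in the main fit. The correlations of same-numbered deviations were -0.0137, -0.0499, 0.0871 and 0.148. They were not set against those of other pairs, so they cannot exclude a pairing. With the replicate block 6247 genes were called, and 20 of the 290 genes lost a call (Etv1, Etv5, Mapk3 and Cdkn1a among them). The cause of these changes was not tested.

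Limits are the 4 and 5 mice a group, whole tissue with differing makeup, unknown batches and strand use, and counts under about 0.2 CPM, where single reads decide a value.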

Other observations

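Metabolic and other genes, grouped in lists added after the data were seen, are set beside the 45.3% of all genes called. Of 21 cholesterol synthesis genes 20 were higher and 0 lower (median log2 fold change 1.04, against -0.06 over all genes; 15 higher with the smooth muscle term), with Insig1, the sterol-sensing regulator of the pathway, at 2.01. Of 17 glycolysis genes without Gapdh 14 were higher and 2 lower (median 0.90; 11 higher with the term), the lactate exporter Slc16a3 by 2.40 and the glucose transporter Slc2a1 by 2.19, while Pfkm and Pfkfb3 fell by 1.42 and 1.11. Of 20 genes of ketogenesis and fatty acid oxidation 9 were lower and 2 higher (55% called). Xenobiotic enzymes held 21 lower and 5 higher of 35 (median -1.04). The log2 fold changes of Ugt8a, Sult1a1, Ces2b, Ces1g and Cyp4b1 were -5.52, -4.58, -4.35, -4.27 and -4.16, and the glutathione transferase Gsta4 rose by 1.80. Slc7a11, the cystine importer, was at 62.8 in BA and 3.53 in A mice on average (4.15). On its list of cystine and oxidative stress genes 7 of 17 were higher and 1 lower (47.1% called). Of 10 keratins tested 6 were higher and 0 lower (60% called, median 0.96). Of 22 interferon-stimulated genes 1 was higher and 7 lower (36.4% called, Mx1 1.30, Zbp1 -1.92). Of 17 circadian clock genes 6 were higher and 2 lower (47.1% called). The interferon, clock and cystine lists thus lay near or under the share of all genes.

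Gapdh and its processed pseudogene Gm13394, which shares 96.5% of its 36-base words with Gapdh, were uneven among BA mice. Gapdh was at 29.4, 40.1, 131, 36.7 and 137 normalised CPM in BA mice 1 to 5 and 29.9, 17.7, 19.1 and 21.0 in A mice. Gm13394 was at 198, 238, 101, 197 and 115 in BA mice and 119, 122, 106 and 109 in A mice. BA mice 3 and 5 were thus the highest in Gapdh and the lowest in Gm13394 of the BA mice. In A against WT mice Gapdh had a log2 fold change of -2.39 and Gm13394 of 7.56. The source of reads on these loci was not tested, and Gapdh levels here do not measure the gene alone.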
